A study of Mus musculus with 20 samples.

Results

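Adm, Vegfa, P4ha1, P4ha2, Bnip3, Ddit4, Ndrg1, Ankrd37, Car9 and Kdm3a are hypoxia-responsive genes whose products act outside glycolysis, and they were followed by gene symbol through the kidney and bone marrow counts of oxaliplatin-treated mice. They are 10 of the 55486 genes listed in each tissue, and all 10 had enough counts to be tested in both tissues. RNA was sequenced from kidney and from tibia and femur marrow of C57BL/6 mice, aged 10 weeks when dosing began. For 8 weeks they were injected intraperitoneally with 5% dextrose alone (ctrl) or with 10 mg/kg of oxaliplatin, a DNA-damaging platinum drug, in the same vehicle (oxa). Each of the 4 combinations of tissue and treatment holds 5 libraries, named here by their number within the group. The methods give 6 days between the last dose and collection for marrow, and name mice of both sexes, while the labels give no sex and every library held transcripts of the Y-linked genes. The kidney is also where Epo, the gene of erythropoietin, is made.

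Cells sense oxygen through prolyl hydroxylases that mark the alpha subunits of the hypoxia-inducible factors (HIF) for destruction by the von Hippel-Lindau complex. When oxygen is short the alpha subunits persist, pair with ARNT, bind DNA at a short core motif and raise the transcription of genes for vessel growth, matrix, mitochondrial turnover, growth control and chromatin as well as for glycolysis. Several of these genes are also known targets of other pathways, among them p53, glucocorticoid and integrated stress signaling for Ddit4.

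Total counts per library lay between 24393007 and 30925430 in kidney and between 30660153 and 41140527 in marrow, and 3 counts corresponded to at most 0.130 CPM. CPM are counts relative to the library total after TMM scaling within a tissue, on the usual CPM scale. A gene was called at an adjusted p under 0.05 in edgeR together with a fold change beyond 1.5, and 11.5% of the 19293 genes tested in kidney and 23.3% of the 22363 tested in marrow were called. Markers of the labelled tissues were present, with summed proximal tubule markers of 17007 CPM or more in every kidney library and summed neutrophil markers of 9726 CPM or more in every marrow library. Because the samples are bulk tissue, fewer cells of a type and less RNA per cell cannot be told apart.

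In kidney 4 of the 10 genes were called and all of them were higher with oxaliplatin (Ankrd37, Ddit4, P4ha1 and Kdm3a). In marrow 5 were called, again all higher (Adm, Bnip3, P4ha2, Ddit4 and Vegfa). The share called higher among all tested genes was 7.68% in kidney and 11.6% in marrow. These shares also serve as the reference for the counts of list genes given below. At an adjusted p under 0.05 whatever the fold, 6 of the 10 were higher in each tissue, where 14.4% of kidney and 16.3% of marrow genes were, and Kdm3a was lower in marrow, as 16.8% of marrow genes were. The oxa and ctrl libraries did not overlap, with oxa higher, for 5 of the 10 in kidney and 4 in marrow, where 9.69% and 11.4% of tested genes separated that way. Ddit4 was the only gene of the 10 called in both tissues, as were 2.39% of the 17507 genes tested in both, and Ndrg1 and Car9 were called in neither. The median log2 fold change of the 10 was 0.64 in kidney and 1.00 in marrow, against 0.02 and -0.04 over all tested genes. The 10 were chosen with earlier results of these data known, so these counts and medians are descriptions. Testing against a 1.5-fold change, in place of a filter on the estimated fold, left 0 of the 10 called in kidney.

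**Figure D1:**
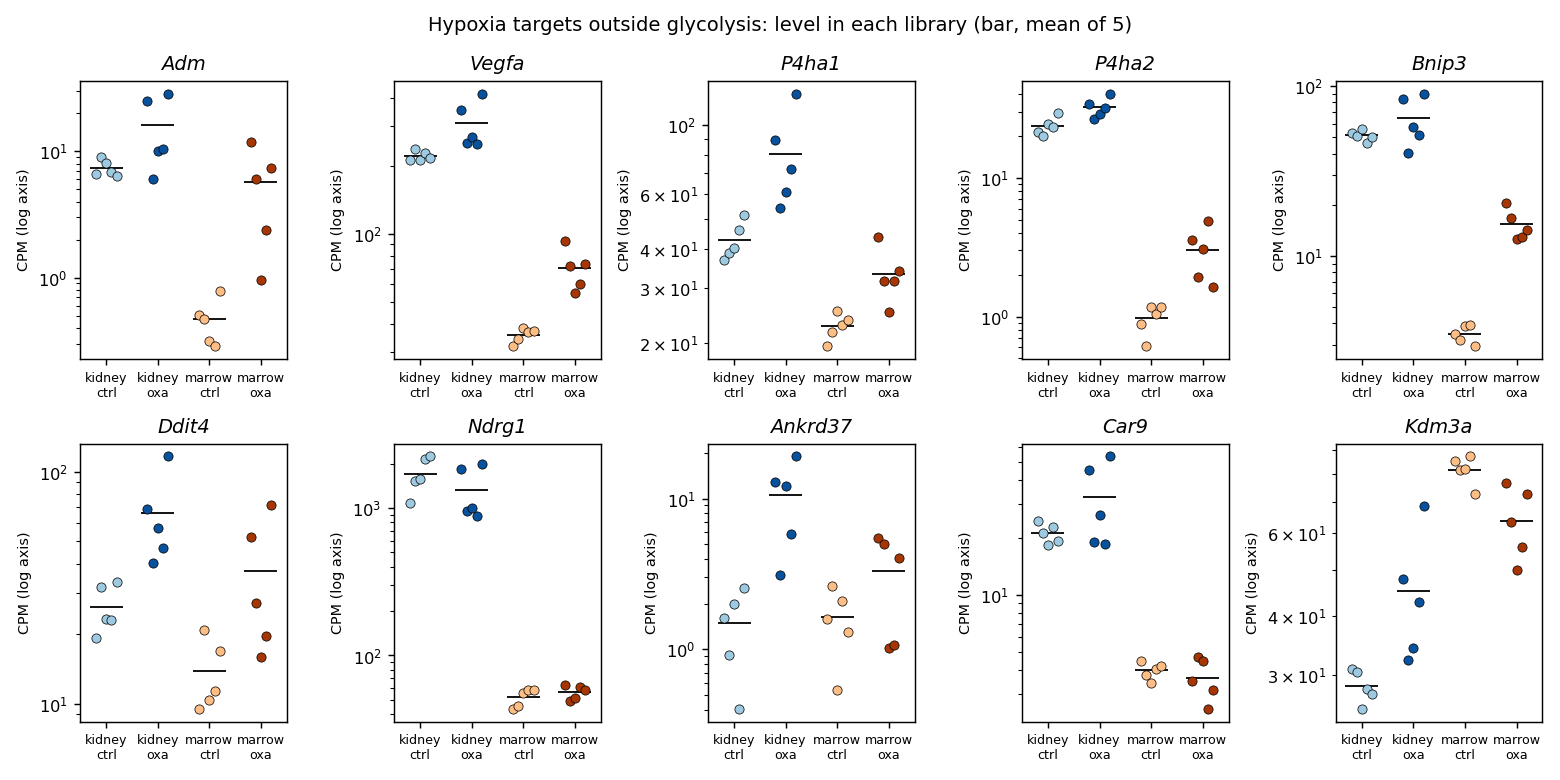
CPM of each gene in each of the 20 libraries, on a log axis scaled for each gene, with a bar at the mean of 5 libraries; kidney is in blue and marrow in orange, pale for ctrl and dark for oxa. In kidney 2 oxa libraries stand above the rest in most panels, while in marrow all 5 oxa libraries of Bnip3 lie above all ctrl libraries, 12.5 to 20.6 against 2.92 to 3.90 CPM.

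DNA just upstream of a RefSeq transcript start is shown for Ankrd37, the largest kidney difference, and for Adm and Bnip3, the largest in marrow. It is also shown for Ddit4, called in both, and Kdm3a, whose difference had opposite signs in the tissues. Windows of 250 bases ending just before the transcript start, on GRCm38.p6 and credited to RefSeq, were matched for 9 of the 10 genes, all but Ndrg1. Capitals mark the HIF core letters ACGTG or GCGTG, or the same letters read from the other strand (CACGT or CACGC), and letters that overlap on the opposite strands, as in CACGTG, count as 2 matches. The Ankrd37 window is chr8:45999851-46000100, the Adm window chr7:110627407-110627656, the Bnip3 window chr7:138909507-138909756, the Ddit4 window chr10:59951771-59952020 and the first Kdm3a window chr6:71632918-71633167. All but that of Adm are on the minus strand, and each is written 5′ to 3′ toward its start.
Ankrd37: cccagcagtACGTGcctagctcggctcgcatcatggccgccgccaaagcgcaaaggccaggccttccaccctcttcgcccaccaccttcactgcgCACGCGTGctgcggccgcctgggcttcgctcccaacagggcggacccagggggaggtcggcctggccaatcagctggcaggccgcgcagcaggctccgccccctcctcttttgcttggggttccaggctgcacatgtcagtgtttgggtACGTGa
Adm: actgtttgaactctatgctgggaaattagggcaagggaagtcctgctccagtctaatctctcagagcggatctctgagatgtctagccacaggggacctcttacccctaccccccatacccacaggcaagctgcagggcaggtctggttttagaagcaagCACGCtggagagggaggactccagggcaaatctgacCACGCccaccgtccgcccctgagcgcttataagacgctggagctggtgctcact
Bnip3: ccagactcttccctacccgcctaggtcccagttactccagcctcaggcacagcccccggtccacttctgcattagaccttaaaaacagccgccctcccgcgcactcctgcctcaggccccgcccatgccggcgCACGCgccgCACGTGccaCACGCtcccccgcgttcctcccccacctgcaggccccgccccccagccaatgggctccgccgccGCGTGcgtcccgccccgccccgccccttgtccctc
Ddit4: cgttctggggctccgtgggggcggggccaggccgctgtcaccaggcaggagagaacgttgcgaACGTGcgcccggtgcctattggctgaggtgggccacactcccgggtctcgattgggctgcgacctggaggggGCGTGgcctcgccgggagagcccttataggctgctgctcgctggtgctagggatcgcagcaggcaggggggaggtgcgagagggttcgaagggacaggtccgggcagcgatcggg
Kdm3a: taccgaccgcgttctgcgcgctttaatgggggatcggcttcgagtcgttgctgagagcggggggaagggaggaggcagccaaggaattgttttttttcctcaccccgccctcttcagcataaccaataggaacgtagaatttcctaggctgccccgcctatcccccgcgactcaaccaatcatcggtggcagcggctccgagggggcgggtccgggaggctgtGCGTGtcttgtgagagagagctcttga

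Bnip3 carried the most matches in its window, 5, of which 2 overlap in a CACGTG 108 bases before the start. Ankrd37 carried 4, of which 2 overlap on opposite strands and the nearest lies 6 bases before the start. Its RefSeq start lies inside the longer gene that GENCODE annotates. The P4ha2 window and the Vegfa window that held matches also lie wholly inside the annotated gene. The only matches of Kdm3a and Car9 likewise lie inside their annotated genes. All of these windows are included in the counts that follow. Of the 12 windows of the 9 genes, 9 held at least 1 match and 7 held at least 2, where 38.6% and 16.7% of all 32851 windows in the table did so. The Vegfa window at the outermost start of the gene held none. These are letters found in the sequence and not measured binding sites.

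Adm and Vegfa encode secreted signals to vessels. Adm (ENSMUSG00000030790, chr7:110627661-110629820, plus strand of GRCm38), which encodes the vasodilator peptide adrenomedullin, had 0.51, 0.47, 0.32, 0.29 and 0.78 CPM in ctrl marrow libraries 1 to 5 and 12.0, 5.99, 0.96, 2.36 and 7.36 CPM in oxa marrow. The groups did not overlap, although oxa library 3 was close to the ctrl range and oxa library 1 far above it. The log2 fold change was 3.60 (SE 0.61, adjusted p = 6.5e-04 in edgeR). In kidney Adm stood at 6.57, 8.99, 8.08, 6.84 and 6.36 CPM in ctrl and at 25.2, 6.03, 10.1, 10.4 and 28.6 CPM in oxa libraries 1 to 5. Oxa libraries 1 and 5 were well above the ctrl range and oxa library 2 was below it, and the log2 fold change of 1.13 (SE 0.43) was not called (adjusted p = 0.0843 in edgeR). It was called without oxa library 2 (1.33, adjusted p = 0.0213) and with DESeq2 (1.12, adjusted p = 0.0301). The marrow difference exceeded the kidney difference by 2.50 on the log2 scale (95% interval 0.96 to 4.04, adjusted p = 0.0140 in edgeR).

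Among the receptors and relatives of adrenomedullin, 0 of 7 tested genes were called in kidney and 2 of 5 in marrow, both higher. Over all tested genes, 7.68% in kidney and 11.6% in marrow were called higher. Ramp3, which encodes a protein that turns the calcitonin receptor-like receptor into an adrenomedullin receptor, rose from 0.109 ± 0.065 to 1.90 ± 0.34 CPM (SD, n = 5) in marrow (log2 fold change 4.07, SE 0.37). Its ctrl level was close to the 3-count limit, so the size of this fold change depends on few counts. Ramp2, which encodes a second such protein, rose by 0.64 (SE 0.20).

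Vegfa (ENSMUSG00000023951, chr17:46016993-46032369, minus strand) encodes vascular endothelial growth factor A. In ctrl marrow it stood at 31.9, 34.2, 38.4, 36.9 and 37.4 CPM. In oxa marrow libraries 1 to 5 it stood at 92.7, 72.3, 54.7, 59.9 and 73.9 CPM. Every oxa library was above every ctrl library, with a log2 fold change of 0.98 (SE 0.13, adjusted p = 8.0e-05 in edgeR). Kidney levels were 213, 238, 213, 228 and 217 CPM in ctrl and 352, 252, 268, 249 and 416 CPM in oxa. Here too the groups did not overlap, but 3 of the oxa libraries lay just above the ctrl range, and the log2 fold change of 0.47 (SE 0.13, adjusted p = 0.0143 in edgeR) was below 1.5-fold. With library-size scaling alone it was called at 0.61 (adjusted p = 0.00889 in edgeR). That scaling also moved the median of all tested kidney genes from 0.02 to 0.16. The difference between tissues was 0.56 (95% interval 0.19 to 0.94, adjusted p = 0.0218), a call lost with library-size scaling alone (adjusted p = 0.0503) and with at least 10 counts in every library (adjusted p = 0.0573).

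Of 9 tested VEGF receptors and relatives, 3 were called higher in kidney and 5 in marrow, and 0 lower. Flt1, which encodes VEGF receptor 1, rose in both, by 0.79 (SE 0.21) in kidney and 0.87 (SE 0.13) in marrow. The largest rises were of the lymphatic growth factor genes Vegfd in kidney (1.68, SE 0.24) and Vegfc in marrow (1.65, SE 0.18). Summed endothelial markers, a list that shares the VEGF receptor gene Kdr, were also higher. They stood at 356 to 497 CPM in oxa against 296 to 318 in ctrl kidney and at 436 to 658 against 254 to 335 in marrow. Of these markers 2 of 7 in kidney and 4 of 7 in marrow were called higher, and none was at 0. Their part in the Vegfa and receptor values was not tested.

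P4ha1 and P4ha2 encode the catalytic alpha subunits of collagen prolyl 4-hydroxylase, which stabilizes the collagen triple helix and is distinct from the prolyl hydroxylases that act on HIF. P4ha1 (ENSMUSG00000019916, chr10:59323296-59373304, plus strand) had 37.1, 38.9, 40.5, 46.1 and 51.7 CPM in ctrl kidney. In oxa kidney it had 89.6, 54.2, 60.8, 72.3 and 126 CPM. All oxa libraries were above all ctrl libraries (log2 fold change 0.91, SE 0.23, adjusted p = 0.0156 in edgeR). In marrow it ran from 19.6 to 25.5 CPM in ctrl, with a median of 23.0, and stood at 43.8, 31.7, 25.2, 31.6 and 34.2 CPM in oxa libraries 1 to 5. Only oxa library 3 fell within the ctrl range, and the log2 fold change of 0.55 (SE 0.14, adjusted p = 0.00649) was just below 1.5-fold. It passed 1.5-fold without ctrl library 3 (0.60) or oxa library 3 (0.64), with DESeq2 or its size factors (0.59) and with library-size scaling alone (0.70). The last of these moved the median of all tested marrow genes from -0.04 to 0.11. The tissues' differences were not distinguished (-0.30, 95% interval -0.80 to 0.19, adjusted p = 0.361).

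P4ha2 (ENSMUSG00000018906, chr11:54100095-54131665, plus strand) was called in marrow and not in kidney. Marrow levels were 0.89, 0.61, 1.17, 1.05 and 1.17 CPM in ctrl and 3.54, 1.94, 3.08, 4.92 and 1.64 CPM in oxa libraries 1 to 5. The groups did not overlap, with oxa library 4 highest and oxa library 5 lowest, and the log2 fold change was 1.63 (SE 0.32, adjusted p = 0.00162 in edgeR). In kidney P4ha2 had 21.4, 20.2, 24.6, 23.1 and 29.4 CPM in ctrl and 34.2, 26.5, 29.0, 31.8 and 40.5 CPM in oxa. The ranges overlapped at ctrl library 5, and the difference of 0.45 (SE 0.12, adjusted p = 0.00892) was under 1.5-fold. With library-size scaling alone, which moved the median of all tested kidney genes from 0.02 to 0.16, it was 0.59 (adjusted p = 0.00171) and was called. Marrow exceeded kidney by 1.26 (95% interval 0.58 to 1.93, adjusted p = 0.00523). P4ha3, the remaining alpha subunit gene, was below the testing limit in kidney and rose in marrow from 0.172 ± 0.14 to 0.807 ± 0.47 CPM (SD, n = 5), a log2 fold change of 2.22 (SE 0.61).

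Collagen genes and their modifying enzymes rose alongside, 7 of 12 in kidney and 9 of 12 in marrow, and 0 fell. Col1a1, a fibrillar collagen gene, rose by 1.83 (SE 0.11) in kidney, and Col4a1, a basement membrane collagen gene, rose by 0.89 (SE 0.09) in kidney and 2.81 (SE 0.28) in marrow. The interstitial fibroblast markers, a list that also holds Col1a1, summed to 167 to 231 CPM in ctrl kidney and 282 to 348 CPM in oxa kidney, with 3 of 5 tested called higher. In marrow adipocyte markers rose in 5 of 5 cases, from sums of 19.3 to 50.7 CPM in ctrl to 1699, 604, 1575, 1690 and 252 CPM in oxa libraries 1 to 5, with none at 0. The oxa marrow libraries with the highest and lowest P4ha2, numbers 4 and 5, were the second highest and the lowest in this sum, and its part in the P4ha2 difference was not tested.

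Bnip3 and Ddit4 act on mitochondria and growth. Bnip3 (ENSMUSG00000078566, chr7:138890836-138909519, minus strand), which encodes a mitophagy receptor of the outer mitochondrial membrane, had 3.48, 3.20, 3.88, 3.90 and 2.92 CPM in ctrl marrow and 20.6, 16.6, 12.5, 12.9 and 14.1 CPM in oxa marrow. Every oxa library was more than 3-fold above the highest ctrl library, and the log2 fold change of 2.14 (SE 0.17, adjusted p = 1.3e-06 in edgeR) had the smallest adjusted p of the 10 genes in either tissue. Adipocyte marker sums were 1699, 604, 1575, 1690 and 252 CPM in oxa marrow libraries 1 to 5 and 19.3 to 50.7 CPM in ctrl. Oxa library 1 was the highest of the oxa libraries for both Bnip3 and this sum, while library 5 was the lowest for the sum but not for Bnip3. The part of these markers in the Bnip3 difference was not tested. In kidney Bnip3 had 52.7, 50.9, 56.1, 46.1 and 50.3 CPM in ctrl and 84.1, 40.1, 57.0, 51.7 and 90.1 CPM in oxa. Oxa library 2 was below and oxa libraries 1, 3 and 5 above all ctrl libraries, so that the mean difference of 0.33 (SE 0.21, adjusted p = 0.265) did not pass. The difference between the tissues was 1.86 (95% interval 1.35 to 2.36, adjusted p = 5.1e-06).

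Of 9 other mitophagy genes tested, 0 were called higher and 1 lower in kidney, and 2 higher and 1 lower in marrow. Calls either way made up 11.5% of all tested genes in kidney and 23.3% in marrow. The mitophagy gene that fell in marrow was Bnip3l, the close relative of Bnip3 that clears mitochondria from maturing red cells. It stood at 292, 347, 280, 404 and 237 CPM in ctrl and 160, 187, 155, 113 and 171 CPM in oxa marrow (log2 fold change -0.99, SE 0.16), with no overlap and a sign opposite to that of Bnip3. Erythroid markers fell in 12 of 13 cases in the same libraries, from sums of 31895 to 55150 CPM to 4099 to 10648 CPM, with none at 0. Their part in the Bnip3l and Bnip3 values was not tested.

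Ddit4 (ENSMUSG00000020108, chr10:59949669-59951834, minus strand) encodes REDD1, an inhibitor of mTORC1 signaling. In kidney it had 19.1, 31.7, 23.2, 22.8 and 33.2 CPM in ctrl and 69.2, 40.5, 57.2, 46.9 and 116 CPM in oxa. All oxa libraries exceeded all ctrl libraries (log2 fold change 1.34, SE 0.31, adjusted p = 0.0123 in edgeR). In marrow it had 9.46, 20.7, 10.4, 11.3 and 16.9 CPM in ctrl and 52.1, 27.2, 15.9, 19.6 and 71.7 CPM in oxa. Oxa libraries 3 and 4 lay within the ctrl range and libraries 1 and 5 far above it, with a log2 fold change of 1.44 (SE 0.41, adjusted p = 0.0196). That call was lost without oxa library 1 (1.29, adjusted p = 0.0520), without a low-count filter (adjusted p = 0.0752), in the test against 1.5-fold (adjusted p = 0.0961) and with the Y-linked level as a covariate (0.70, adjusted p = 0.174). Oxa marrow libraries 1, 2 and 5, the highest for Ddit4, also had the lowest Y-linked levels of the 10 marrow libraries. Their means were 5.18, 5.00 and 4.61 log2 CPM, against 5.27 to 5.42 in the others. In marrow this covariate therefore follows treatment in part, and the fit that holds it cannot separate them. The difference between tissues was 0.13 (95% interval -0.92 to 1.18, adjusted p = 0.885), an interval that leaves room for a difference of about 2-fold either way.

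Targets of other pathways that act on Ddit4 were counted beside it. p53 targets rose in 10 of 12 cases in kidney and 7 of 12 in marrow, led by Cdkn1a in kidney (5.25, SE 0.31) and Eda2r in marrow (4.99, SE 0.42). None fell in kidney and 1 fell in marrow, Btg2 (-1.48, SE 0.12), named because it was the only one. Glucocorticoid targets rose in 1 of 8 cases in kidney and 6 of 8 in marrow, and 0 fell. In oxa marrow libraries 1 to 5, Errfi1 had 86.3, 44.3, 28.9, 53.1 and 62.4 CPM and Cdkn1c had 25.6, 19.1, 8.04, 16.2 and 7.98 CPM. Klf9 had 76.2, 69.1, 48.2, 51.5 and 81.2 CPM and Fkbp5 had 162, 184, 72.6, 75.9 and 214 CPM in the same libraries. Libraries 3 and 4, the lowest for Ddit4, were also the lowest for Klf9 and Fkbp5, while the lowest were 2 and 3 for Errfi1 and 3 and 5 for Cdkn1c. Summed neutrophil markers were lowest in libraries 3 and 4, at 23243, 22127, 9726, 11642 and 27839 CPM in oxa libraries 1 to 5 and 19586 to 23932 CPM in ctrl, and 0 of 10 of these markers were called. Their part in the Ddit4 values was not tested. ATF4 and CHOP targets rose in 1 of 9 cases in kidney, where 0 fell, and in 4 of 10 in marrow, where Slc7a11 fell by 0.82 (SE 0.23). Of 10 other regulators near mTORC1 2 were called higher and 1 lower in marrow, against 0 and 1 in kidney, where Mtor itself fell by 0.90 on the log2 scale (SE 0.10). Over all tested genes, 7.68% in kidney and 11.6% in marrow were called higher, and 11.5% and 23.3% were called either way. The mTORC1 counts, and those of the ATF4 and CHOP targets in kidney, are near these shares.

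Ndrg1 and Car9 were called in neither tissue. Ndrg1 (ENSMUSG00000005125, chr15:66929318-66969640, minus strand) encodes a cytoplasmic stress-response protein linked to differentiation. It had 1083, 1514, 1562, 2135 and 2240 CPM in ctrl kidney and 1833, 952, 1002, 883 and 1989 CPM in oxa kidney. Oxa libraries 2, 3 and 4 lay below every ctrl library while libraries 1 and 5 lay inside the ctrl range, and the log2 fold change was -0.36 (SE 0.31, adjusted p = 0.419 in edgeR). Marrow ranged from 43.3 to 58.7 CPM in ctrl and from 49.4 to 63.2 CPM in oxa (0.12, SE 0.11, adjusted p = 0.455). Of its 3 relatives, Ndrg2 (2.08, SE 0.20) and Ndrg4 (1.20, SE 0.22) rose in marrow, and none was called in kidney.

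Car9 (ENSMUSG00000028463, chr4:43506966-43513729, plus strand) encodes a cell-surface carbonic anhydrase that takes part in pH control. In ctrl kidney it had 24.6, 21.1, 18.4, 22.7 and 19.2 CPM and in oxa kidney 45.7, 18.9, 26.2, 18.5 and 53.6 CPM. Only oxa libraries 1, 3 and 5 were above the ctrl range (log2 fold change 0.62, SE 0.32, adjusted p = 0.189). In marrow it ranged from 3.43 to 4.46 CPM in ctrl and from 2.49 to 4.67 CPM in oxa (-0.13, SE 0.20, adjusted p = 0.674). Of 12 other carbonic anhydrase genes tested, 1 was lower in kidney, and 4 were higher and 2 lower in marrow. Among all tested genes 11.5% in kidney and 23.3% in marrow were called either way. Car3, an abundant adipocyte and muscle enzyme, rose in marrow by 6.41 (SE 0.53) and Car1, an erythroid enzyme, fell by 1.97 (SE 0.21).

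Ankrd37 and Kdm3a encode nuclear or chromatin-linked proteins. Ankrd37 (ENSMUSG00000050914, chr8:45996902-46005707, minus strand), which encodes an ankyrin repeat protein, had 1.61, 0.91, 1.99, 0.40 and 2.55 CPM in ctrl kidney and 13.0, 3.13, 12.1, 5.82 and 19.0 CPM in oxa kidney. The groups did not overlap, with oxa library 2 just above the highest ctrl library, and the log2 fold change of 2.83 (SE 0.60, adjusted p = 0.00748 in edgeR) exceeded that of 99.8% of tested kidney genes. In marrow it had 1.58, 2.62, 0.54, 2.11 and 1.30 CPM in ctrl and 5.47, 5.01, 1.03, 1.07 and 4.04 CPM in oxa. Oxa libraries 1, 2 and 5 were above the ctrl range and libraries 3 and 4 inside it, and the difference of 1.02 (SE 0.52, adjusted p = 0.161) did not pass. The difference between tissues was -1.77 (95% interval -3.38 to -0.17, adjusted p = 0.0888), and it passed without oxa kidney library 2 (-2.01, adjusted p = 0.0447) and with the Y-linked covariate (-2.25, adjusted p = 0.0365). Ankrd37 overlaps Ufsp2 and Lrp2bp on the other strand, and the strand setting of the counting is not given in the sources used here, so some of its counts may belong to them. Adm, Bnip3, Ndrg1 and Car9 also overlap genes annotated on the other strand, with the same limit.

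Kdm3a (ENSMUSG00000053470, chr6:71588972-71632990, minus strand) encodes a demethylase of histone H3 lysine 9, an enzyme that itself needs oxygen. Kidney levels were 30.8, 30.5, 25.4, 28.0 and 27.4 CPM in ctrl and 47.9, 32.4, 34.3, 42.9 and 68.5 CPM in oxa. All oxa libraries were above all ctrl libraries (log2 fold change 0.67, SE 0.19, adjusted p = 0.0214 in edgeR). The call was lost without ctrl library 3 (adjusted p = 0.0502), ctrl library 5 (adjusted p = 0.0512) or oxa library 5 (0.48, under 1.5-fold) and without a low-count filter (adjusted p = 0.0608). In marrow Kdm3a was lower with oxaliplatin, at 76.6, 63.2, 50.2, 56.0 and 72.8 CPM against 85.5, 81.6, 82.1, 87.3 and 72.5 CPM in ctrl. The ranges touched, since oxa libraries 1 and 5 were above ctrl library 5, and the log2 fold change of -0.36 (SE 0.12, adjusted p = 0.0298) was under 1.5-fold. The difference between the tissues was -0.97 (95% interval -1.40 to -0.55, adjusted p = 9.1e-04). None of 5 tested KDM3 and KDM4 relatives was called in either tissue.

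**Figure D2:**
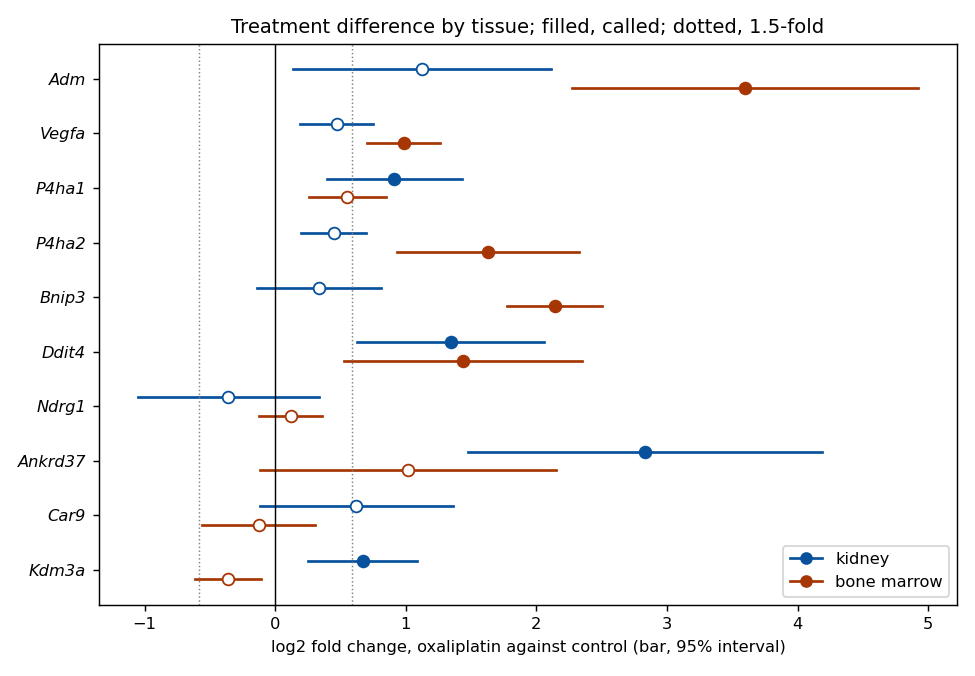
Log2 fold change of oxaliplatin against ctrl for each gene, kidney in blue and marrow in orange, with 95% intervals; filled points were called and dotted lines mark 1.5-fold. Marrow lies to the right of kidney for Adm, Vegfa, P4ha2 and Bnip3, and Kdm3a lies on opposite sides of 0, at 0.67 in kidney and -0.36 in marrow.

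Tested directly, the treatment difference depended on tissue for 5 of the 10 genes, where 30.1% of 24321 genes passed the same interaction test. On the log2 scale it was larger in marrow for Adm, Bnip3, P4ha2 and Vegfa, and of opposite sign for Kdm3a. The test compares fold changes and not changes in CPM. In ctrl mice Adm, Bnip3, P4ha2 and Vegfa were lower in marrow than in kidney, by 4.39, 4.31, 5.03 and 3.06 on the log2 scale. For Ddit4, P4ha1, Ankrd37, Ndrg1 and Car9 the test did not separate the tissues.

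The 5 oxa kidney libraries were far from alike. Library 5 was the highest and library 1 the second highest for 10 of 10 genes, and library 2 was the lowest for 7. Median ratios to the ctrl mean over the 10 genes were 1.89, 1.13, 1.23, 1.37 and 2.47 in libraries 1 to 5. Epo, a HIF target outside the 10, had 206, 28.2, 104, 66.0 and 219 CPM in the same libraries and at most 0.26 CPM in ctrl kidney, so its highest libraries were also 5 and 1 and its lowest 2. Within the treatment groups, all 45 pairs of the 10 genes correlated positively over the 10 kidney libraries, with a median r of 0.76. This is a description over libraries that share depth and scaling. Neither the library order nor the pair correlations were computed over all tested genes. They therefore cannot be read as particular to the 10. Summed erythroid markers ran the other way, at 119, 825, 305, 790 and 110 CPM in oxa libraries 1 to 5 and 308 to 475 CPM in ctrl, with 1 of 9 tested markers called, higher. Podocyte markers were higher in all oxa libraries (467 to 558 against 323 to 327 CPM, 4 of 6 called), and proximal tubule markers lower (17007 to 20931 against 23175 to 27305 CPM, 4 of 9 called), with none at 0. Adipocyte markers summed to 106, 22.1, 24.2, 33.1 and 66.8 CPM in oxa libraries 1 to 5 and 1.86 to 14.2 CPM in ctrl, with 3 of 4 tested called higher, so that libraries 1 and 5 were highest and library 2 lowest here as well. Macrophage markers summed to 60.2 to 72.7 CPM in oxa and 107 to 137 CPM in ctrl, with 5 of 6 tested called lower and 1 higher. The part of these in the kidney differences was not tested.

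Without oxa kidney libraries 1 and 5, a choice made after the values were seen, 2 of the 10 genes were called in kidney, both higher. Over all genes the number called went from 2216 to 1520, of which 1026 were higher. Ankrd37 (2.24, adjusted p = 0.0392 in edgeR) and Ddit4 (0.90, adjusted p = 0.0126) stayed past both thresholds. P4ha1 (0.55, adjusted p = 0.00233) and Kdm3a (0.37, adjusted p = 0.0109) passed the test below 1.5-fold. Bnip3 was at -0.04, Car9 at 0.0053 and Ndrg1 at -0.84, the last with an adjusted p of 0.0544.

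Marrow libraries varied in a less uniform way. Oxa library 1 was the highest for 7 of the 10 genes and library 3 the lowest for 7. Median ratios to the ctrl mean were 2.98, 1.98, 1.14, 1.41 and 1.87 in libraries 1 to 5. Of the 45 pairs of genes 31 correlated positively within groups, with a median r of 0.37, again with no share over all tested genes computed. Adm and Ddit4 were low in libraries 3 and 4, where Lox, which encodes a collagen cross-linking enzyme, and P4ha2 were not. Lox had 78.5, 63.1, 100.4, 105 and 47.4 CPM in oxa marrow libraries 1 to 5 and 15.0 to 18.9 CPM in ctrl. Summed macrophage markers were 2602, 2379, 1118, 1729 and 1877 CPM in the oxa libraries and 807 to 1145 CPM in ctrl. Of these markers 5 of 7 were called higher and none was at 0. Megakaryocyte markers summed to 2416 to 3585 CPM in oxa and 1446 to 2234 CPM in ctrl, with 5 of 6 called higher. Skeletal muscle markers rose in 4 of 5 cases and B cell markers fell in 6 of 7. The part of these markers in the values of the 10 genes, Vegfa included, was not tested.

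**Figure D3:**
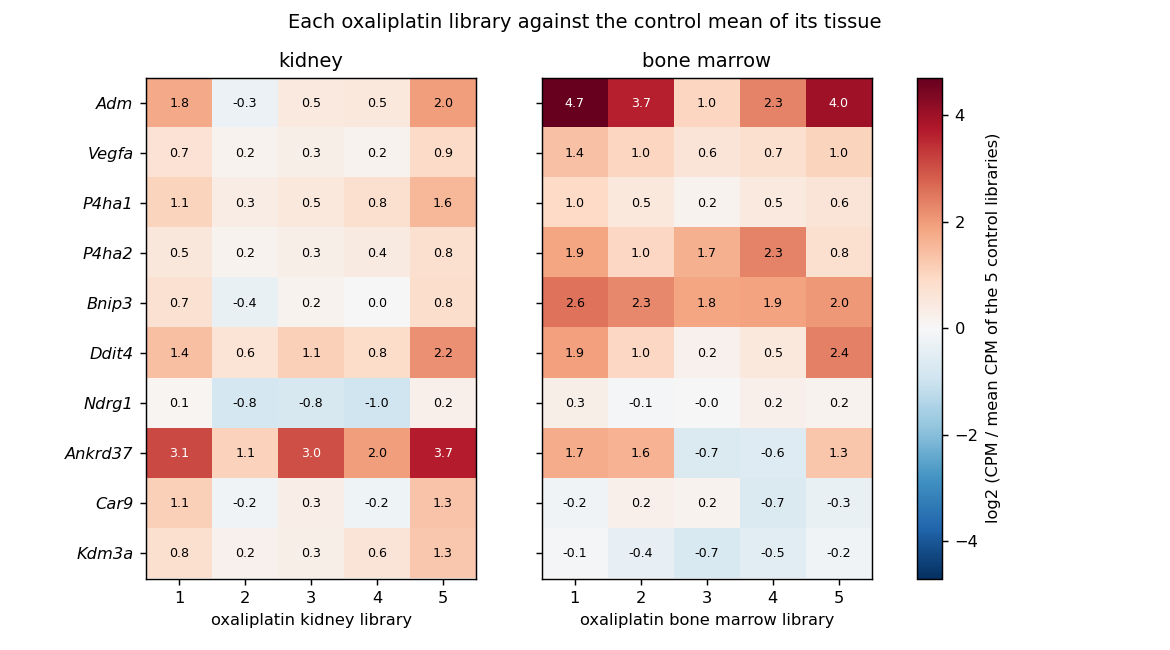
Log2 ratio of each oxa library to the mean of the 5 ctrl libraries of its tissue, by gene and library number, red for higher and blue for lower. Columns 1 and 5 are reddest in kidney for every gene, and in marrow Bnip3 is red in all 5 libraries while Adm, Ddit4 and Ankrd37 are strongest in libraries 1, 2 and 5.

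Levels were set side by side on 1 scaling over all 20 libraries. In ctrl mice 8 of the 10 genes were higher in kidney than in marrow by log2 differences from 1.35 to 5.46, where 34.6% of the 24321 tested genes were called higher in kidney and 72.9% were called either way. Ndrg1 (5.46, SE 0.25) and P4ha2 (5.03, SE 0.26) differed most. Kdm3a was the exception, lower in kidney by -1.09 (SE 0.15, adjusted p = 3.95e-07), and for Ankrd37 the test did not separate the tissues (0.30, 95% interval -0.89 to 1.48, adjusted p = 0.638), with a sign that turned under 2 alternatives (-0.13 with library size alone and -0.48 with the Y-linked covariate). In oxa mice 9 of the 10 were higher in kidney, against 32.3% of all tested genes and 66.2% called either way. There Kdm3a was close in the tissues (-0.12, SE 0.14, adjusted p = 0.454) and Ankrd37 was higher in kidney (2.07, SE 0.53, adjusted p = 0.00144). The RNA of the tissues was extracted with different kits, so tissue and extraction cannot be told apart.

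From the highest group mean down, Vegfa, P4ha2, Bnip3, P4ha1 and Adm all ran in the order oxa kidney, ctrl kidney, oxa marrow, ctrl marrow. On that scaling neighbouring groups had separate ranges at every step for Vegfa and P4ha1, at the last step only for Adm, and at the last and the middle steps for Bnip3 and P4ha2. For Kdm3a the order ran from ctrl marrow through oxa marrow and oxa kidney to ctrl kidney, and only oxa and ctrl kidney had separate ranges. Ankrd37 had overlapping ranges between all neighbours. Per kilobase of exon, Ndrg1 led in ctrl kidney with 297 ± 82 RPKM, ahead of Vegfa with 59.5 ± 2.9 RPKM (SD, n = 5). In ctrl marrow Kdm3a led with 8.49 ± 0.50 RPKM and in oxa marrow Ddit4 did, with 18.5 ± 11 RPKM, while P4ha2 was the lowest of the 10 in marrow under both treatments.

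The remaining genes of the pathway give the setting. In the HIF system itself 1 of 16 genes was called in kidney, the HIF prolyl hydroxylase gene Egln3, which rose by 1.26 (SE 0.30, adjusted p = 0.0133 in edgeR) and had 65.3, 26.9, 31.0, 39.0 and 71.0 CPM in oxa libraries 1 to 5 against 15.9 to 24.8 CPM in ctrl. In marrow 5 of 16 were called, all higher. They were Hif3a (1.44, SE 0.22), Arnt2 (1.41, SE 0.37), Egln3 (1.13, SE 0.15), Epas1 (0.84, SE 0.13) and, named because it completes the 5, Hif1a (0.64, SE 0.10). Among all tested genes 7.68% in kidney and 11.6% in marrow were called higher, and the kidney count of this list is near that share.

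Of 32 tested hypoxia targets outside glycolysis beyond the 10, 10 were called higher and 0 lower in kidney (median log2 fold change 0.29), and 15 higher and 3 lower in marrow (median 0.50). Lox rose by 4.06 (SE 0.60) in kidney and 2.20 (SE 0.19) in marrow, and Stc2, which encodes the secreted glycoprotein stanniocalcin 2, by 2.08 (SE 0.26) and 2.43 (SE 0.50). Angptl4, which encodes an inhibitor of lipoprotein lipase, rose by 2.58 (SE 0.26) in marrow. The 3 that fell in marrow were Bnip3l, Tfrc and Mxi1, of which the transferrin receptor gene Tfrc and Bnip3l serve red cell maturation. Glycolytic hypoxia targets rose in 13 of 21 cases in kidney (median 0.75) and 11 of 21 in marrow (median 0.60), and 0 fell. In kidney Slc16a3, the gene of a lactate exporter, rose by 3.96 (SE 0.65), and in marrow Pfkl, a phosphofructokinase gene, rose by 1.20 (SE 0.09). These lists were drawn up with earlier results of these data known, and their counts are descriptions.

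**Figure D4:**
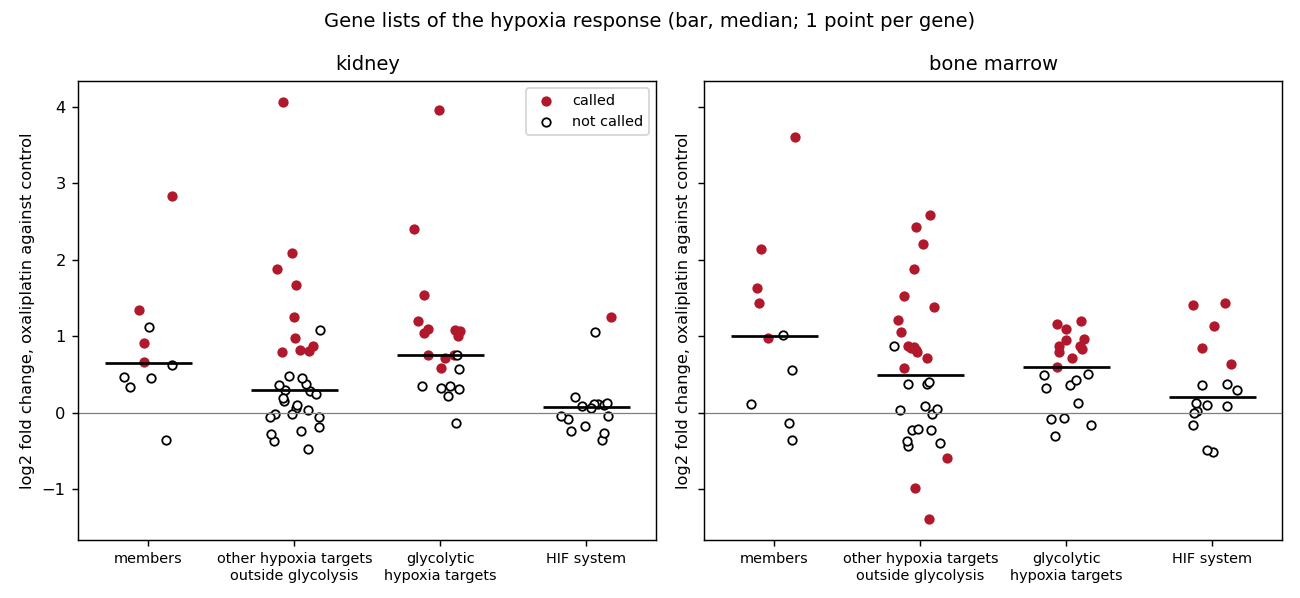
Log2 fold change of oxaliplatin against ctrl for the 10 genes, for other hypoxia targets outside glycolysis, for glycolytic targets and for the HIF system, 1 point per gene, red where called, with a bar at the list median. The medians of the 10 genes, 0.64 in kidney and 1.00 in marrow, lie near that of the glycolytic list in kidney (0.75) and above it in marrow (0.60).

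By a fixed rule, the non-member genes most like each of the 10 were found among 17497 genes tested in both tissues, by Pearson r of log2 CPM over 20 libraries after each tissue mean was removed. The highest were Tmem37 for Bnip3 (r = 0.966), Cgnl1 for P4ha2 (0.966) and Apoe for Vegfa (0.962). They were followed by Plod1, a lysyl hydroxylase gene, for P4ha1 (0.934), Rerg for Adm (0.927), Papln for Kdm3a (0.927) and Man2a1 for Ddit4 (0.915). Crlf2 for Ankrd37 (0.898), Ypel2 for Ndrg1 (0.833) and Rtl6 for Car9 (0.786) were the least alike of these best partners. Apoe also came second for Bnip3 (0.960). The points share libraries and the treatment difference itself, and the values are given as a description.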

How the data were processed

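RNA-seq counts were analysed from 20 libraries, 5 of each tissue and treatment, with groups taken from the labels. The authors deposited raw counts per gene, not normalized, and a column of annotated transcripts per gene that was not used. According to the methods, reads were aligned with STAR to the Ensembl release 101 mouse genome and uniquely aligned reads were counted in Partek Flow, while the submitters' processing notes name bcl2fastq, STAR, Subread featureCounts and Salmon; the library chemistry is likewise given in 2 ways, with a SMARTer kit in the methods and removal of ribosomal RNA with random hexamers in the labels, and strand use is not given in the sources used here. Total counts were 24393007 to 41140527 per library; 3 counts, taken as the floor, were 0.0668 to 0.0975 CPM in marrow and 0.0900 to 0.130 CPM in kidney, for counting error only.

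Each table held 55774 lines. After removal of 287 repeated lines and of 1 line with an empty cell, 55486 genes remained, of which 55141 had a position in GENCODE mouse release 21 (GRCm38). Within a tissue, the filter of filterByExpr (minimum count 10) and TMM scaling preceded edgeR 4.0.16's two-sided quasi-likelihood test with robust fitting over the whole table (limma 3.58.1, R 4.3.3), treatment being the only term, with Benjamini-Hochberg adjustment over all tested genes. The SE was taken from the fold change and its F statistic. Tissues were compared in a model of the 4 group means over all 20 libraries. CPM on that joint scaling were used for levels between tissues, and RPKM with the summed exon length for levels between genes. Likeness used log2 CPM with a prior count of 2. The steps were tested on simulated data.

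The named genes are all 10 members, whatever their values, and at most 4 called genes of each list, those with the largest change, with exceptions marked. The members and the lists were chosen with earlier results of these data known. Some genes stand in several lists, among them Kdr, Flt1, Plod1, Plod2, P4hb, Bnip3l and Sesn2, so the list counts are not independent. No label says that same-numbered libraries share a mouse, and nothing but the labels marks the libraries as separate animals, so p-values measure the spread between these libraries. Within a group, 40 pairs of libraries all differed by more than counting noise (chi-square per degree of freedom of 6.83 or more). The alternatives were DESeq2 1.42.0, its size factors, library size alone, a filter of 1 count in any library or of 10 counts in all, a Y-linked covariate, a test against 1.5-fold, a replicate block, and each library left out in turn. Plotting used matplotlib 3.10.9 under Python 3.11.15.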

Additional observations from a re-analysis of the deposited data

Results flagged for a closer look

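The treatment difference of 5 of the 10 genes differed between tissues in edgeR's interaction test (adjusted p under 0.05 over 24321 genes). Each is given as the marrow minus the kidney log2 fold change in the model of all 20 libraries. The log2 fold changes of the separate fits within each tissue follow it, and their difference need not equal it. Adm stood at 2.50 (SE 0.74), with 3.60 in marrow and 1.13 in kidney. Bnip3 stood at 1.86 (SE 0.24), with 2.14 and 0.33, and had the smallest SE relative to its size. P4ha2 stood at 1.26 (SE 0.33), with 1.63 and 0.45. Vegfa stood at 0.56 (SE 0.18), with 0.98 and 0.47, the call of the 5 that changed with scaling or filter. Kdm3a stood at -0.97 (SE 0.20), with -0.36 and 0.67, and was the only one whose signs were opposite. In the 40 sets of 5 libraries (10 genes in 4 groups), 0 held a library set apart by Dixon's test at the 95% level. This test uses the gap beside a single extreme library. A pair of high libraries, such as oxa kidney libraries 1 and 5, can therefore go unmarked.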

How the results depend on the processing

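Of 1140 values of single genes recomputed under an alternative, 1106 kept their sign and their side of the threshold, 17 lost a call, 11 gained one and 6 changed sign, none of the 6 being called. Testing against a 1.5-fold change moved the called genes from 2216 to 454 in kidney and from 5221 to 2730 in marrow, and the members called in kidney from 4 to 0; by construction it asks more than the filter on the estimated fold. Without oxa kidney libraries 1 and 5, an alternative added after seeing the data, 2 members and 1520 genes were called in kidney and Bnip3 turned to -0.039. The other changes of sign were Car9 in marrow (0.014 with library size alone), the tissue difference of Ddit4 (-0.30 with the Y-linked covariate and -0.20 without oxa marrow replicate 5, in a range of -0.20 to 0.43 over the single libraries left out) and Ankrd37 between control tissues (-0.13 with library size alone and -0.48 with the Y-linked covariate); the cause was not tested. With 1 library left out, members called ranged from 3 to 5 in kidney, 4 to 6 in marrow and 5 to 6 for the tissue difference, and genes called from 1761 to 2424, 4725 to 5727 and 6495 to 8028. Library size alone moved the median of all genes to 0.16 in kidney and 0.11 in marrow, and the share of calls that were higher from 66.8% to 82.7% and from 49.6% to 63.4%. Deviations of same-numbered libraries correlated with r from -0.16 to 0.26, and no pairing of groups had all of its 5 values above 0.1. For oxa kidney with oxa marrow r was -0.08, 0.01, 0.17, 0.07 and 0.21 in libraries 1 to 5. With no reference spread for r, these values cannot decide whether such libraries share a mouse. With the replicate block 2017 genes and 4 members were called in kidney, 4968 and 5 in marrow and 6710 and 5 for the tissue difference, and the block changed no call of a member. Adm, P4ha2 and Ankrd37 rested on as few as 10 to 24 counts in some libraries, where small differences were not detectable.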
